A study of Homo sapiens with 43 samples.

Results

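CDK9 sites were compared between KARPAS422 and SUDHL5 after 2 h in 30 nM CDK-TCIP1, using the 4 peak lists of antibody CST2316S in treated cells: 2 replicate lists of KARPAS422 and 2 of SUDHL5. They are 4 of the 43 samples of the series and were chosen by their labels alone. Both are established human lines of diffuse large B-cell lymphoma (DLBCL), so each line stands for 1 tumour. The treated cells and the controls used below all received 0.1% DMSO, the solvent. The controls are 2 DMSO lists of each line at 2 h with the same antibody. For SUDHL5 the CDK9 lists of antibody ab239364 (2 of 30 nM CDK-TCIP1 and 2 of DMSO, all at 2 h) and the lists of RNA polymerase II phosphorylated at serine 5 (Ser5P; 2 of 30 nM CDK-TCIP1 at 2 h and 2 of DMSO at 4 h) were also read; for KARPAS422 only lists of CST2316S were read.

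CDK9, with a T-type cyclin, forms P-TEFb, which phosphorylates paused RNA polymerase II and its pausing factors so that transcription proceeds. BCL6 is the repressor that holds germinal-centre B cells in their state by silencing genes of cell-cycle arrest, apoptosis, migration and plasma-cell differentiation. CDK-TCIP1 joins a ligand of CDK9 to a ligand of BCL6 in one molecule. The comparison asks which places held CDK9 in both lines after treatment and which in a single line.

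Peaks of the 4 lists that overlapped by at least 1 bp were merged into 20880 regions. A region was called shared when all 4 lists had a peak in it, and line-held when both lists of 1 line and neither list of the other did. By this rule 3451 regions (16.5%) were shared, 3739 (17.9%) were KARPAS422-held and 2718 (13%) were SUDHL5-held. The other 10972 were mixed: 8906 of them lay in 1 list only, 4795 of which were in KARPAS422 replicate 1, the longest list, 478 lay in 1 list of each line and 1588 in 3 lists. Among 20037 protein-coding genes, with a gene counted when a peak lay within 1 kb of either annotated end, 1388 (6.93%) were shared, 1800 (8.98%) KARPAS422-held and 194 (0.968%) SUDHL5-held. The calls come from presence or absence of a peak in 2 lists per line and carry no test per region or gene.

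The gene starts below show single genes, while the classes were called within 1 kb of either gene end. The line-held genes printed here all have a contrast over the start. Other best-ranked line-held genes did not: TBL1XR1 had peaks there in all 4 lists, and DRICH1, TRIM2 and GNPTAB in none. Each sequence is the 250 bases before the RefSeq start (build GRCh38.p14), written in the direction of transcription, and the capitals mark matches to TTCNNNGAA, the core of the BCL6 recognition sequence, which reads the same on both strands. BCL6 is the only shared gene printed. IGLL1, C16orf74 and BCL2 had peaks over these bases in both KARPAS422 lists and no SUDHL5 list. CXCR4 and CDKN1A had them in both SUDHL5 lists and no KARPAS422 list. RASSF6, also shared and with peaks over these bases in all 4 lists, is not printed and has 0 matches.
BCL6: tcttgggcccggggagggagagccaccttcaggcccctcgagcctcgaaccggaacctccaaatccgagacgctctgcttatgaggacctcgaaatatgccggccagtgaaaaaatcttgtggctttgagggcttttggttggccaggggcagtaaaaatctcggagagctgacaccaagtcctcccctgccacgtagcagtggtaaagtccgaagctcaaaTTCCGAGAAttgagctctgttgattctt
IGLL1: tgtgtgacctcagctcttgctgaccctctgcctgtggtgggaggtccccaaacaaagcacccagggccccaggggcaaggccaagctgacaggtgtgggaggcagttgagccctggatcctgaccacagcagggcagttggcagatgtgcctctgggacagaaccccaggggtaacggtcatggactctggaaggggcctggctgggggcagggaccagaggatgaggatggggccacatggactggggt
C16orf74: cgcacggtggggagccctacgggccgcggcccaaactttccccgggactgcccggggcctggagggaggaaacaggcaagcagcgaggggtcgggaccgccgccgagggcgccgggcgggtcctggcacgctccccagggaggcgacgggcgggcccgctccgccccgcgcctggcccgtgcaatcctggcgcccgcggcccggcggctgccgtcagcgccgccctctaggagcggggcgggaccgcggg
BCL2: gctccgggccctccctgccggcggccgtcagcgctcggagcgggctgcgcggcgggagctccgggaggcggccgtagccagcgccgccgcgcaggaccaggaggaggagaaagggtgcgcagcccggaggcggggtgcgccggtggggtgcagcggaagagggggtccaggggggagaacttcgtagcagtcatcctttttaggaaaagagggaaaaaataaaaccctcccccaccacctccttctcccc
CXCR4: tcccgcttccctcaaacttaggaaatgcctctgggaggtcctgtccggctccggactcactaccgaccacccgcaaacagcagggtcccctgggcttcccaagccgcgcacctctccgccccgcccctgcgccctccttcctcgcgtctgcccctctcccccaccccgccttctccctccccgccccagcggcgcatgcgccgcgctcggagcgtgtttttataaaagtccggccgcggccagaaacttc
CDKN1A: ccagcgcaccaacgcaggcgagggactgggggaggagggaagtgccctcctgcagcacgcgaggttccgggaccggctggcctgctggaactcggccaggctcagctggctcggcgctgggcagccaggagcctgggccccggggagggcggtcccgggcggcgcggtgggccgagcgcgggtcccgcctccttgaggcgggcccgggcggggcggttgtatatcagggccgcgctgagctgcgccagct
The BCL6 stretch lies at chr3:187745469-187745718 (minus strand), IGLL1 at chr22:23580291-23580540 (minus), C16orf74 at chr16:85751097-85751346 (minus), BCL2 at chr18:63319770-63320019 (minus), CXCR4 at chr2:136118150-136118399 (minus) and CDKN1A at chr6:36678464-36678713 (plus). The BCL6 stretch holds 1 match, TTCCGAGAA, and the other 5 hold no match in this window. In the whole 300-base windows of the table (250 bases before and 50 after the start), IGLL1 has 2 CpG dinucleotides, BCL6 12, CXCR4 27, CDKN1A 29, BCL2 31 and C16orf74 44. A match lay in 8.48% of the shared and 6.97% of all protein-coding windows of this length. The match of BCL6 is thus not typical of shared genes.

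The lists of the 2 lines were of similar covered length and differed in where their peaks lay. KARPAS422 replicates 1 and 2 held 14554 and 10297 peaks and SUDHL5 replicates 1 and 2 held 10005 and 9761. The means were 12426 ± 3010 and 9883 ± 173 peaks (SD, n = 2 lists each), and both KARPAS422 lists were longer than both SUDHL5 lists, a 1.24-fold ratio of geometric means (exact two-sided permutation test, p = 0.33, the smallest that 2 against 2 lists can give). Peaks covered 19.6 and 12.3 Mb in KARPAS422 and 15.5 and 15.8 Mb in SUDHL5, so that the SUDHL5 lists fell between the KARPAS422 lists (0.992-fold, exact permutation p = 1). Within 1 kb of a gene end lay 33.2% and 35.6% of KARPAS422 peaks and 20.8% and 19.8% of SUDHL5 peaks, a difference of 14.1 percentage points with no overlap between the lines (exact permutation p = 0.33, again the smallest possible). Peaks of 5 kb or more numbered 409 and 177 in KARPAS422 and 449 and 486 in SUDHL5. A peak list carries no read total, and the depth behind each of them is unknown. Nothing in the labels says that the replicates were separate cultures, so the p-values measure only the spread between these lists.

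**Figure D1:**
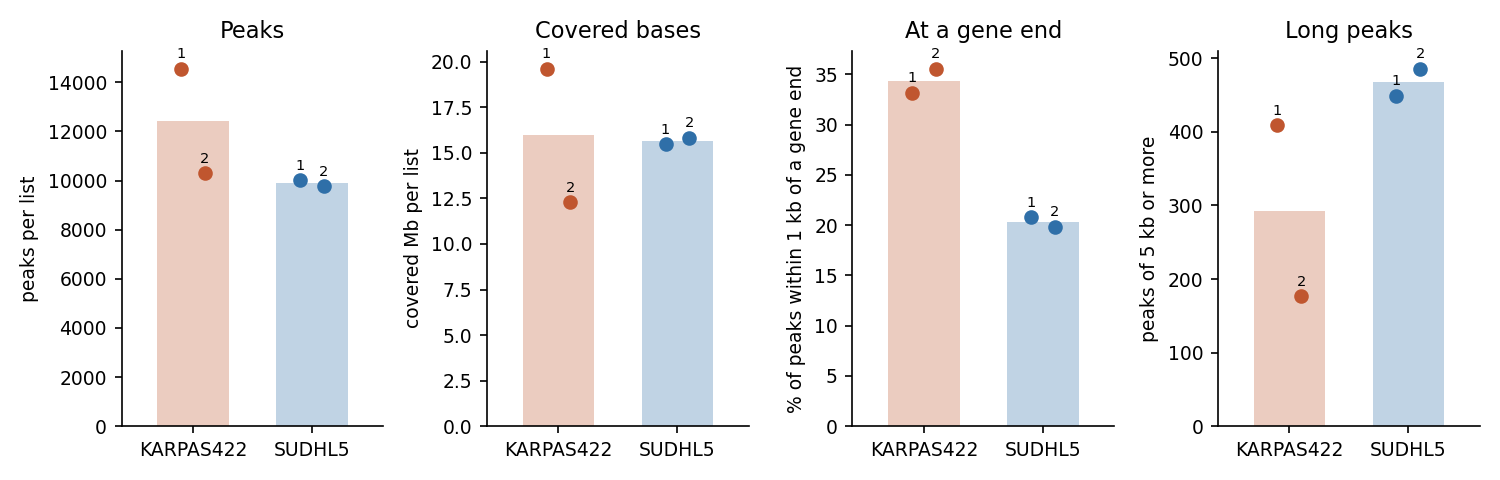
Peaks, covered bases in Mb, the percentage of peaks within 1 kb of a gene end and peaks of 5 kb or more in each treated list (points, with the replicate number beside them; bars are the mean of 2 lists). The share at gene ends is 33.2% and 35.6% in KARPAS422 against 20.8% and 19.8% in SUDHL5, while the covered bases of the lines overlap.

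The strongest peaks were largely common to the 2 lines, and the rest less so. Of the 1000 best peaks by q of each KARPAS422 list, 100% touched a peak of the other KARPAS422 list and 82.8% to 84.3% touched a peak of a SUDHL5 list. Of the 1000 best peaks of each SUDHL5 list, 100% touched the other SUDHL5 list and 70.8% to 76.8% a KARPAS422 list. Over whole lists, 57.8% of the longer and 88.7% of the shorter KARPAS422 list were found in its replicate, and 75.3% and 75.5% for SUDHL5. Across lines the values were 35.8% to 45.2% for KARPAS422 peaks and 43.6% to 53.0% for SUDHL5 peaks, below every value within a line.

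Across lines the direction mattered at gene ends. SUDHL5 peaks at a gene end touched a KARPAS422 peak in 73.9% to 81.2% of cases, close to the 75.2% and 80.4% found in the other SUDHL5 list. SUDHL5 peaks elsewhere did so in 36.1% to 45.8% of cases, against 75.4% and 74.3% between SUDHL5 replicates. KARPAS422 peaks were found in SUDHL5 lists at 33.1% to 41.5% at gene ends and 37.1% to 47.2% elsewhere. Gene-end sites of SUDHL5 were thus mostly also sites of KARPAS422, and less often the reverse: at gene ends the KARPAS422 shares, at most 41.5%, lay below all 4 SUDHL5 shares. The KARPAS422 lists held 4828 and 3663 gene-end peaks and the SUDHL5 lists 2079 and 1937. Fewer SUDHL5 peaks limit how many KARPAS422 peaks can be touched, so the asymmetry in part restates these counts.

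**Figure D2:**
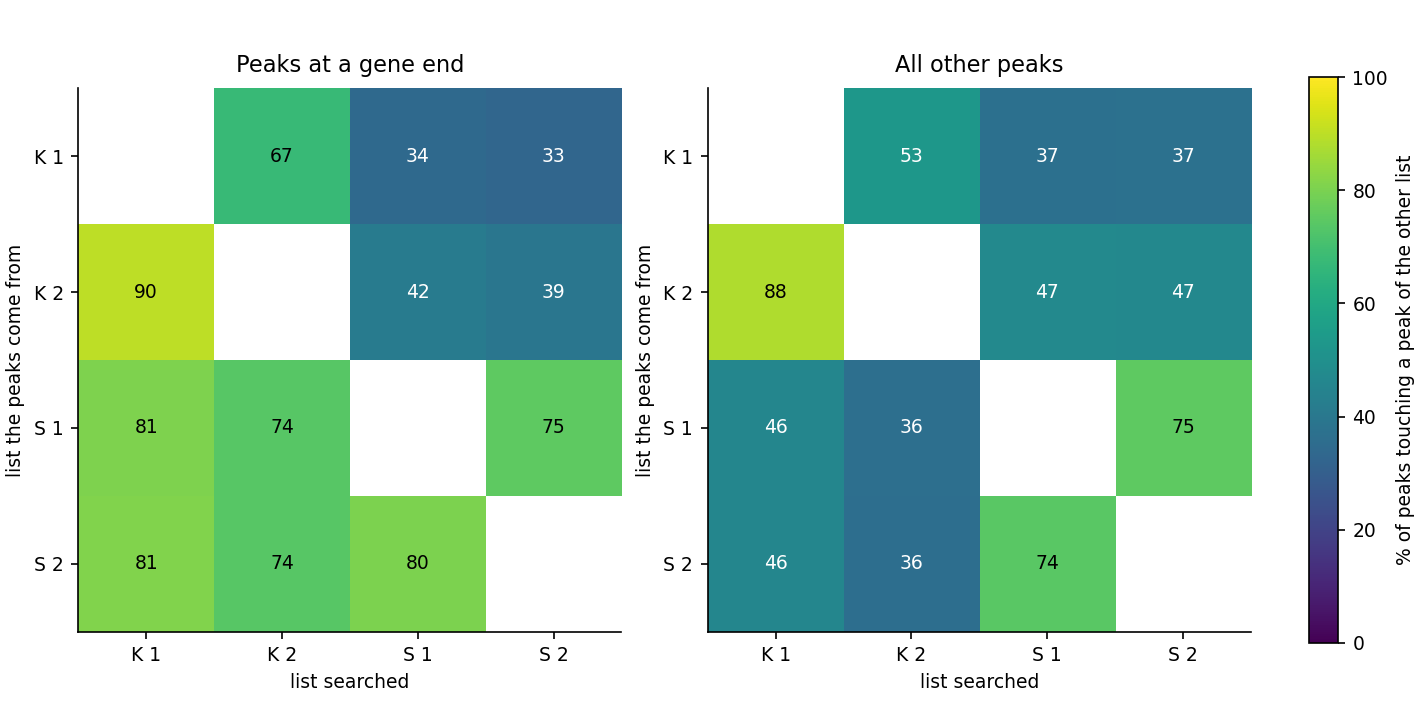
Percentage of the peaks of each list (rows) that touch a peak of another list (columns), for peaks within 1 kb of a gene end and for all other peaks; K is KARPAS422, S is SUDHL5 and the number is the replicate. SUDHL5 rows reach 73.9% to 81.2% in KARPAS422 columns at gene ends and 36.1% to 45.8% elsewhere.

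The 3 classes of regions lay in different places. Of the KARPAS422-held regions 41% lay at a gene end (Wilson 95% interval 39.4% to 42.6%), of the shared regions 36.2% (34.6% to 37.8%) and of the SUDHL5-held regions 8.87% (7.86% to 9.99%), against 27% of all merged regions. These intervals cover counting of regions and not the spread between lists. Between genes lay 19.7%, 24.2% and 36.6% of the same classes. The median distance from a region's centre to the nearest gene end was 6.3 kb for KARPAS422-held, 10.8 kb for shared and 31.8 kb for SUDHL5-held regions, and 45.7%, 50.8% and 74.8% lay over 10 kb away. The share at a gene end kept this order in every alternative that was run on regions, from 33.8% to 44% for KARPAS422-held and from 7.55% to 10.3% for SUDHL5-held regions.

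**Figure D3:**
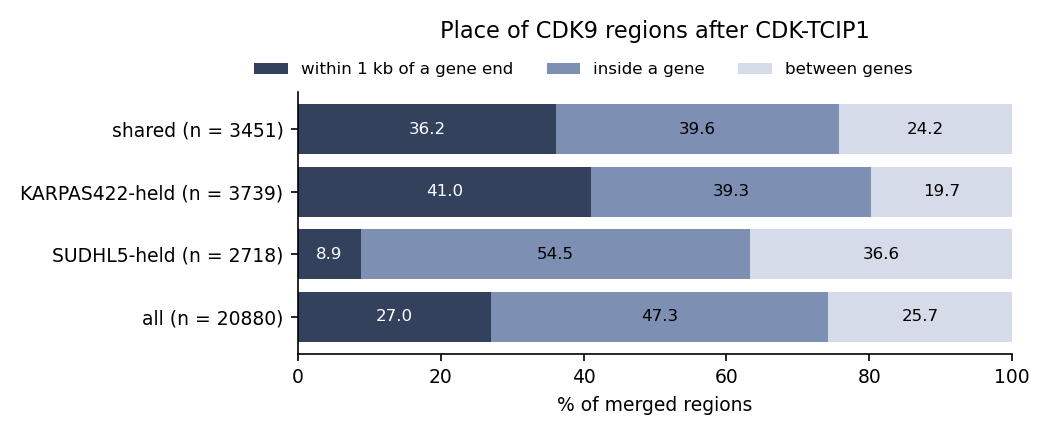
Percentage of merged regions within 1 kb of a protein-coding gene end, elsewhere inside a gene, and between genes, for each class and for all regions. SUDHL5-held regions have 8.87% at a gene end, against 41% of KARPAS422-held and 36.2% of shared regions.

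Shared regions were the longer and better-ranked ones. Their median merged width was 2607 bp, against 1184 bp for KARPAS422-held and 1354 bp for SUDHL5-held regions. A merged width joins the peaks of all lists that hold the region. Shared regions pool more lists than line-held ones, so part of their width follows from the rule. In KARPAS422 replicates 1 and 2 the median covered length of shared regions was 2028 and 1445 bp. In SUDHL5 replicates 1 and 2 it was 1729 and 1746 bp, still above both line-held merged medians. A peak in every list is also likelier for strong peaks, so the ranks in part restate the rule. By −log10 q, 73.4% to 89.6% of shared regions were in the upper 50% of a list's ranks, against 63.4% and 42.3% of KARPAS422-held regions in the KARPAS422 lists and 56.3% and 57.1% of SUDHL5-held regions in the SUDHL5 lists. Among the 1000 best peaks, 150 and 136 regions of the KARPAS422 lists were KARPAS422-held and 224 of each SUDHL5 list were SUDHL5-held. Over the 3451 shared regions, Spearman's rho of the ranks was 0.90 between the KARPAS422 lists, 0.88 between the SUDHL5 lists and 0.41 to 0.45 across lines; this is a description across regions, which share libraries and depth. A shared region was covered for 2687 and 2053 bp on average in the KARPAS422 lists and 2557 and 2584 bp in the SUDHL5 lists (ratio 1.08, exact permutation p = 1). Of these regions 1079 were covered longer in both SUDHL5 lists and 1072 in both KARPAS422 lists.

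BCL6 led the shared genes. Its peak at the gene start (gene at chromosome 3, 187721377 to 187745468) was rank 2 in both KARPAS422 lists and rank 12 in both SUDHL5 lists, with an authors' fold of 63.6, 61.3, 49.2 and 53.9 over each list's own background in KARPAS422 replicates 1 and 2 and SUDHL5 replicates 1 and 2. The fold is not scaled between lists and is used here only to describe a peak within its list. It was a long peak in all 4 lists, 14.5 kb in both of KARPAS422 and 15.9 and 16.4 kb in SUDHL5. Next came IRF2, a repressor of interferon-responsive genes, with peaks of 6.21, 5.17, 6.80 and 6.60 kb in the same order of lists, RASSF6, a scaffold of apoptosis and Hippo signalling, and LPP, the neighbour of BCL6.

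RASSF6 and PTPRC were shared by the rule and still unlike in extent. The RASSF6 peak spanned 1.99 and 1.69 kb in KARPAS422 and 6.75 and 8.34 kb in SUDHL5. At PTPRC, which encodes the leukocyte phosphatase CD45, the spans were 4.69 and 3.98 kb against 21 and 21.2 kb. BRD2, a bromodomain reader of acetylated histones, showed the opposite case of like extents: 6.98, 5.67, 5.91 and 5.02 kb. The other top-ranked shared genes were GTF2I, MS4A1 (CD20 of B cells) and 2 groups that share a peak, PFN1 with ENO3 and PRH1 with PRH1-TAS2R14 and SMIM10L1.

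Genes of B-cell identity were mostly shared. Of 33 germinal-centre B-cell genes, 22 were shared, 1 was KARPAS422-held and 3 were SUDHL5-held, where 6.93%, 8.98% and 0.968% of all genes were. The shared members include PAX5 (the factor that keeps B-cell identity), CD22, CD79A, CD79B, EBF1, FOXP1, IRF8, MEF2B and IKZF3. Of the rest, 3 were mixed (LMO2, SPIB and STAP1). Another 4 had no peak at an end: CD40, MEF2C, MME (CD10) and POU2F2. IKZF3 (Aiolos) had peaks of 5.21 and 5.39 kb in KARPAS422 and 6.54 and 6.46 kb in SUDHL5, and FOXP1 6.17 and 6.25 kb against 12.6 and 13.2 kb. Shared, too, were 9 of 20 genes of B-cell receptor signalling (among them BLK, BLNK, BTK and SYK), 8 of 12 genes of class II antigen presentation, 16 of 23 ribosomal protein genes and 12 of 18 splicing factor genes. The class II genes CIITA, HLA-DOA, HLA-DPA1 and HLA-DRB1 had no peak at an end. All 12 myeloid markers and all 15 genes of other tissues had no peak within 1 kb of an end in any of the 4 lists. Of 12 T-cell markers, 8 had none there, CD3E and LCK were shared, and CD3D and CD3G, which share a peak, were KARPAS422-held. A peak at a gene does not measure its RNA, so these counts check the cell type by chromatin only.

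KARPAS422-held genes were led by IGLL1, a part of the surrogate light chain of pre-B cells. It and its neighbour DRICH1 share a peak of 5.06 and 3.77 kb, with folds of 65.9 and 31.8. C16orf74 had peaks of 4.81 and 3.90 kb (folds 41.2 and 25.2). Then came PYGB, the brain glycogen phosphorylase (4.79 and 4.29 kb), INO80C, a subunit of the INO80 remodeller (4.61 and 4.48 kb), HTR3A, a serotonin receptor channel (8.13 and 5.34 kb), and IGLL5 at the lambda locus (10.2 and 10.7 kb). MBP, ZMYM6 with TMEM35B, LIMK1, and RGS19 with OPRL1 complete the best-ranked genes. No SUDHL5 list, treated or DMSO, had a CST2316S peak at an end of any of these genes. MBP and LIMK1 did have peaks inside the gene in both treated SUDHL5 lists.

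SUDHL5-held genes were led by TBL1XR1, a subunit of corepressor complexes to which BCL6 binds. Its end peak spanned 7.18 and 7.24 kb with folds of 59.4 and 93.4. TBL1XR1 is held by SUDHL5 at its outer annotated end only: within 1 kb of the RefSeq start listed in the promoter table, all 4 lists had a peak. TRIM2 (10.5 and 10.1 kb), GNPTAB (2.77 and 3.62 kb), RUBCNL, an autophagy regulator (8.72 and 9.54 kb), CXCR4 (14 and 14.4 kb) and BIRC3, an inhibitor of apoptosis induced by NF-kB (4.18 and 4.70 kb), followed. BRWD1 had SUDHL5 peaks of 10.2 and 9.94 kb at a gene end, but both KARPAS422 lists had a peak at its RefSeq start and both KARPAS422 DMSO lists one at a gene end. MFAP5, PRDM2 and SNTB1 complete the best-ranked genes, and PRDM2 had KARPAS422 peaks inside the gene in both lists.

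The class of a gene depends on which end is read. The promoter table gives a start for 15843 of the genes, and in 1519 of them (9.59%) that start lies over 1 kb from both annotated ends. Of the KARPAS422-held genes with a start, 1371 of 1516 (90.4%) were KARPAS422-held within 1 kb of it as well, and of the SUDHL5-held genes 110 of 161 (68.3%). Among the genes named here, IKZF1 and SETD2 were KARPAS422-held at a gene end, while both SUDHL5 lists had a peak at the start. KARPAS422-held KLF2, PRDM1 and CCND3 and SUDHL5-held CXCR5 and IER2 had no peak at the start in any treated CST2316S list. When the whole gene was read with 1 kb on each side, 1567 of the 1800 KARPAS422-held genes (87.1%) kept their class and 139 became shared, and of the 194 SUDHL5-held genes 148 (76.3%) kept it and 32 became shared.

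CXCR4 and BCL2 show the contrast over whole loci. CXCR4, the chemokine receptor that places B cells in the dark zone of the germinal centre, lies on chromosome 2 (136114349 to 136118149). From 350 kb upstream to 20 kb downstream of its start, peaks numbered 24 and 23 in treated SUDHL5, covering 78.1 and 79.5 kb, and 6 and 5 in treated KARPAS422, covering 6.77 and 4.68 kb. In DMSO, the SUDHL5 lists had 16 and 12 peaks there (12.6 and 11.7 kb) and the KARPAS422 lists none. With ab239364, treated SUDHL5 had 23 and 21 peaks (40.1 and 53.7 kb), so the domain was seen with another CDK9 antibody. The KARPAS422 peaks all lay upstream of the gene, and neither list had one at the CXCR4 start. Upstream, chr2:136324572-136424090 held the run of neighbouring SUDHL5-held regions with the most members, 12 regions over 99.5 kb, of which 5 had a peak in a SUDHL5 DMSO list, 9 in a treated ab239364 list and none in a KARPAS422 DMSO list.

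BCL2 is the anti-apoptotic gene that BCL6 represses in germinal-centre B cells. Its gene lies on chromosome 18 from 63123346 to 63320090. From 60 kb upstream to 220 kb downstream of its start, peaks numbered 22 and 18 in treated KARPAS422 (48.6 and 33.0 kb) and 0 and 1 in treated SUDHL5 (0 and 0.438 kb). KARPAS422 DMSO lists had 8 and 11 peaks (11.4 and 16.6 kb), and neither the SUDHL5 DMSO nor the treated ab239364 lists had any. The start of BCL2 was covered by peaks of 6.94 and 3.40 kb in KARPAS422. Near its other end, the region chr18:63126261-63130035 was the best-ranked KARPAS422-held region away from gene ends, with ranks 3 and 12 and folds of 80.5 and 34.2.

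**Figure D4:**
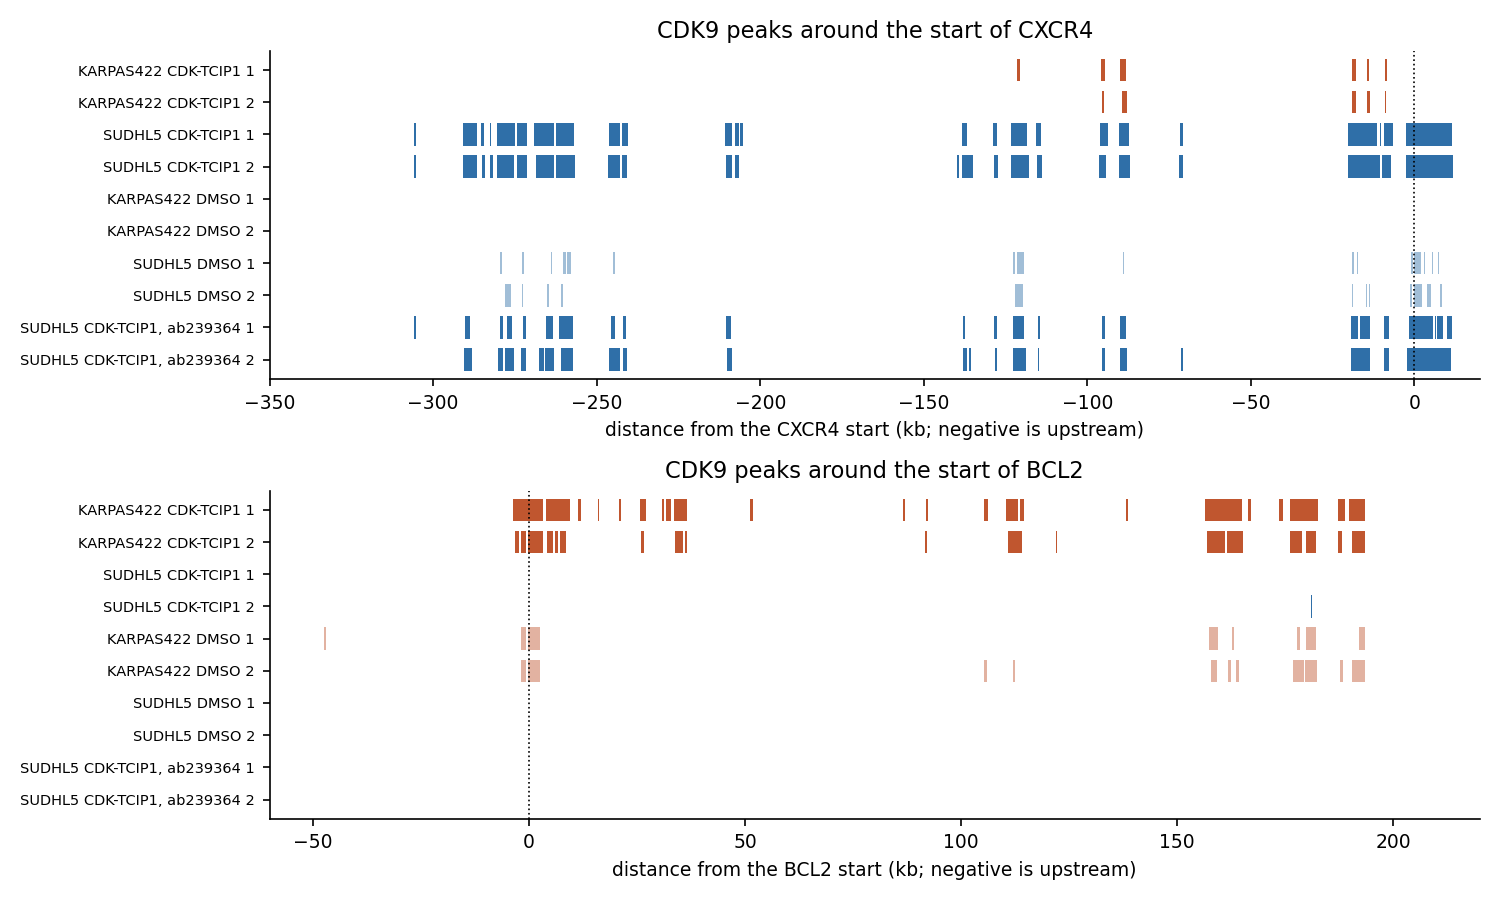
CDK9 peaks (bars, to scale) of each list around the starts of CXCR4 and BCL2, by distance in kb along the direction of transcription; orange is KARPAS422, blue SUDHL5, and pale bars are DMSO lists. Treated SUDHL5 lists have 24 and 23 peaks in the CXCR4 window against 6 and 5 of KARPAS422, and treated KARPAS422 lists 22 and 18 in the BCL2 window against 0 and 1 of SUDHL5.

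Among 24 genes that BCL6 is known to repress, 7 were shared, 5 KARPAS422-held and 4 SUDHL5-held, 2 were mixed and 6 had no peak at an end. For comparison, over all genes 6.93% were shared, 8.98% KARPAS422-held and 0.968% SUDHL5-held. The shared ones include CDKN1B (the kinase inhibitor p27), CD69, BACH2, MYC, NFKB1 and ARID3A. The CDKN1B peak spanned 3.70 and 3.12 kb in KARPAS422 and 5.72 and 4.18 kb in SUDHL5. CD69, an early activation marker that retains lymphocytes in tissue, had folds of 10.2 and 10.9 in KARPAS422 and 105 and 63.7 in SUDHL5, each over its own list's background.

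KARPAS422-held among these targets were BCL2, KLF2, ZEB1, ATR and PRDM1, and SUDHL5-held were CXCR4, CDKN1A, CXCR5 and ID2. ATR rests on weak peaks, with −log10 q of 4.54 and 3.44. CDKN1A (p21, which arrests the cell cycle) had peaks of 2.9 and 2.71 kb in SUDHL5 (folds 9.23 and 12.4), and 1 KARPAS422 list had a peak inside the gene. PRDM1 (Blimp-1, the factor of plasma-cell differentiation) was KARPAS422-held at a gene end by small peaks of 0.901 and 0.365 kb, away from the RefSeq start, and both SUDHL5 lists had peaks inside the gene. KLF2, a factor of lymphocyte quiescence and trafficking, had peaks of 1.3 and 0.937 kb in KARPAS422 alone. Neither KLF2 nor CXCR5 had a peak within 1 kb of its RefSeq start in any of the 4 lists. IRF4, also a target, had no peak in any of the 4 lists.

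Of 24 pro-apoptotic genes, 3 were shared (BCL2L11, TNFRSF10A and TNFRSF10B), 3 KARPAS422-held (CASP10 and CYCS among them), 2 SUDHL5-held (BBC3 among them), 8 mixed and 8 without a peak at an end. Of all genes 6.93% were shared, 8.98% KARPAS422-held and 0.968% SUDHL5-held. The shared and the KARPAS422-held pro-apoptotic genes each made up 12.5% of the list, above this background. These shares rest on 3 genes each, and the SUDHL5-held count rests on 2 genes. BCL2L11 encodes BIM, an activator of mitochondrial apoptosis; its peaks spanned 5.22 and 4.35 kb in KARPAS422 and 0.875 and 2.35 kb in SUDHL5. BBC3 (PUMA) had peaks of 1.85 and 0.710 kb in SUDHL5, with a peak inside the gene in 1 KARPAS422 list, and PMAIP1 (NOXA) had peaks in 1 KARPAS422 and both SUDHL5 lists. Of 10 anti-apoptotic genes, MCL1 and CFLAR were shared, BCL2, BCL2L1 and XIAP were KARPAS422-held and BIRC3 was SUDHL5-held. BCL2L1 (BCL-XL) had peaks of 0.948 and 1.02 kb and XIAP 1.80 kb in both KARPAS422 lists. Of 20 cell-cycle arrest genes, 8 were shared, RBL2 was KARPAS422-held and CDKN1A and GADD45A were SUDHL5-held.

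Most members of the lists of migration and of late B-cell stages were shared or had no peak at an end, and a few were held by 1 line. Over all genes 6.93% were shared, 8.98% KARPAS422-held and 0.968% SUDHL5-held. The 1 KARPAS422-held gene in the migration list and the 1 in the plasma-cell list lay near that background. Of 17 migration and adhesion genes, GNA13, P2RY8, S1PR2 and S1PR4 were shared, ITGA4 was KARPAS422-held (2.77 and 2.13 kb) and CXCR4 and CXCR5 were SUDHL5-held. S1PR2, the receptor that confines B cells to the germinal centre, had peaks of 1.93 and 2.11 kb in KARPAS422 and 7.59 and 21.5 kb in SUDHL5. The SUDHL5-held germinal-centre genes include SERPINA9 (5.55 and 4.8 kb) and CD38 (2.76 and 2.37 kb). IKZF1 (Ikaros) was the KARPAS422-held one by its gene end (7.15 and 6.87 kb). Of 12 plasma-cell genes, CD27, DNAJB9, JCHAIN and XBP1 were shared, PRDM1 was KARPAS422-held, and MZB1 (2.92 and 2.63 kb) and TNFRSF17, which encodes BCMA (1.86 and 1.90 kb), were SUDHL5-held. JCHAIN, which joins secreted antibodies, had peaks of 0.621 and 0.348 kb in KARPAS422 and 4.06 and 5.07 kb in SUDHL5.

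Of 27 genes of P-TEFb and elongation complexes, 5 were shared (HEXIM1 and HEXIM2, which keep P-TEFb inactive, ELL3, ICE2 and SUPT4H1), 3 were KARPAS422-held (CCNT2, a cyclin partner of CDK9, AFF4, the scaffold of the super elongation complex, and CDK12) and none was SUDHL5-held, where 6.93%, 8.98% and 0.968% of all genes were. The CDK9 gene had no peak in any of the 4 lists. In SUDHL5 it did have an end peak in both treated ab239364 lists, 1 ab239364 DMSO list and all 4 Ser5P lists. Of 18 BCL6 corepressor genes, BCOR, EZH2 and HDAC1 were shared, 1 was KARPAS422-held and TBL1XR1 was SUDHL5-held. BCOR peaks spanned 3.36 and 2.75 kb in KARPAS422 and 8.09 and 8.05 kb in SUDHL5.

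The counts of the remaining lists are to be read against all genes, of which 6.93% were shared, 8.98% KARPAS422-held and 0.968% SUDHL5-held. Immediate-early genes counted 9 shared of 25, with DUSP4 and JUN KARPAS422-held and IER2 and KLF10 SUDHL5-held, though both KARPAS422 lists had a peak inside IER2. MYC network genes counted 7 shared of 20 (CCND3 and MXD1 KARPAS422-held), chromatin modifiers mutated in lymphoma 6 of 16 (KMT2D and SETD2 KARPAS422-held), interferon factors 7 of 19 (STAT5A and STAT5B, which share a peak, KARPAS422-held), and NF-kB genes 4 of 19 (BIRC3 SUDHL5-held). FOXO factors and targets counted 5 of 15 (FOXO3, KLF2 and SOD2 KARPAS422-held, PIK3IP1 SUDHL5-held), and heat shock chaperones 5 of 13 (BAG3, DNAJA1 and HSPA1B KARPAS422-held; HSPA1B has a near-identical copy, HSPA1A, so reads there are uncertain). In B-cell receptor signalling LYN and VAV1 were among the KARPAS422-held genes and CD72 was SUDHL5-held, and RPL8, SRSF5 and SRSF6 were KARPAS422-held in the ribosomal and splicing lists. Absence at the gene ends was not absence from the gene: both SUDHL5 lists had peaks inside AFF4, CCND3, FOXO3, LYN and STAT5B, 1 list inside SOD2 and VAV1, and both KARPAS422 lists inside CD72. Over all 398 different genes of the 23 lists, 134 (33.7%) were shared, 38 (9.55%) KARPAS422-held and 18 (4.52%) SUDHL5-held, so the KARPAS422-held share lay near the 8.98% of all genes.

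Peaks in DMSO showed how far the classes existed without CDK-TCIP1. Of the KARPAS422-held regions, 1295 (34.6%) had a peak in both KARPAS422 DMSO lists and 1574 (42.1%) in neither. Of the SUDHL5-held regions, 135 (4.97%) had a peak in both SUDHL5 DMSO lists and 2413 (88.8%) in neither. The DMSO lists differ in length, 6689 and 7804 peaks in KARPAS422 against 1611 and 1264 in SUDHL5, so that these shares cannot be set against each other as changes. Across lines DMSO peaks were few: 9 KARPAS422-held regions had a peak in 1 SUDHL5 DMSO list, and 58 SUDHL5-held regions had one in a KARPAS422 DMSO list. Of the shared regions, 62.4% had a peak in both KARPAS422 DMSO lists and 13.9% in both SUDHL5 DMSO lists, and 695 (20.1%) had none in any of the 4.

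Absence from the SUDHL5 lists of CST2316S did not mean that SUDHL5 lacked other CDK9 or polymerase peaks there, and this differed by place. Of the 1533 KARPAS422-held regions at a gene end, 36.5% had a peak in both treated ab239364 lists of SUDHL5, 37.6% in neither, and 51.1% had a Ser5P peak in all 4 Ser5P lists. Of the 2206 KARPAS422-held regions away from gene ends, 3.35% had a peak in both treated ab239364 lists, 90.9% in neither, and 6.39% had Ser5P in all 4 lists. In single treated ab239364 lists the share was 48.5% and 50.3% at gene ends, and 5.30% and 7.16% away from them. For the SUDHL5-held regions, which the CST2316S lists of the same cells define, both ab239364 lists had a peak in 61.0% at gene ends and 32.0% away, and neither had one in 15.8% and 35.5%. Shared regions had a peak in both ab239364 lists in 88.5% at gene ends and 64.5% away.

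By genes, 1208 of the 1800 KARPAS422-held genes (67.1%) had an ab239364 peak at an end in at least 1 treated SUDHL5 list. The share was 29.2% of all genes and 65.1% of mixed genes, so KARPAS422-held genes were close to mixed genes. Ser5P in all 4 lists was found at 1023 KARPAS422-held genes (56.8%), against 26% of all genes and 56.9% of mixed genes. No peak in any CDK9 or Ser5P list of SUDHL5 was found at 170 KARPAS422-held genes (9.44%), against 53.7% of all genes and 9.15% of mixed genes. Among the named genes, KMT2D, CCNT2, CDK12, AFF4, JUN and SRSF6 had both ab239364 lists and all 4 Ser5P lists in SUDHL5, while IGLL1, C16orf74, HTR3A, IGLL5, BCL2, ITGA4, KLF2 and DUSP4 had 0 of 2 and 0 of 4. Of the 38 KARPAS422-held list members, 26 had ab239364 in at least 1 list, and of the 18 SUDHL5-held members 15 did, the exceptions being TBL1XR1, BBC3 and CD72. No second CDK9 antibody or Ser5P list of KARPAS422 was used, so the same check of the SUDHL5-held sites was not made in KARPAS422.

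**Figure D5:**
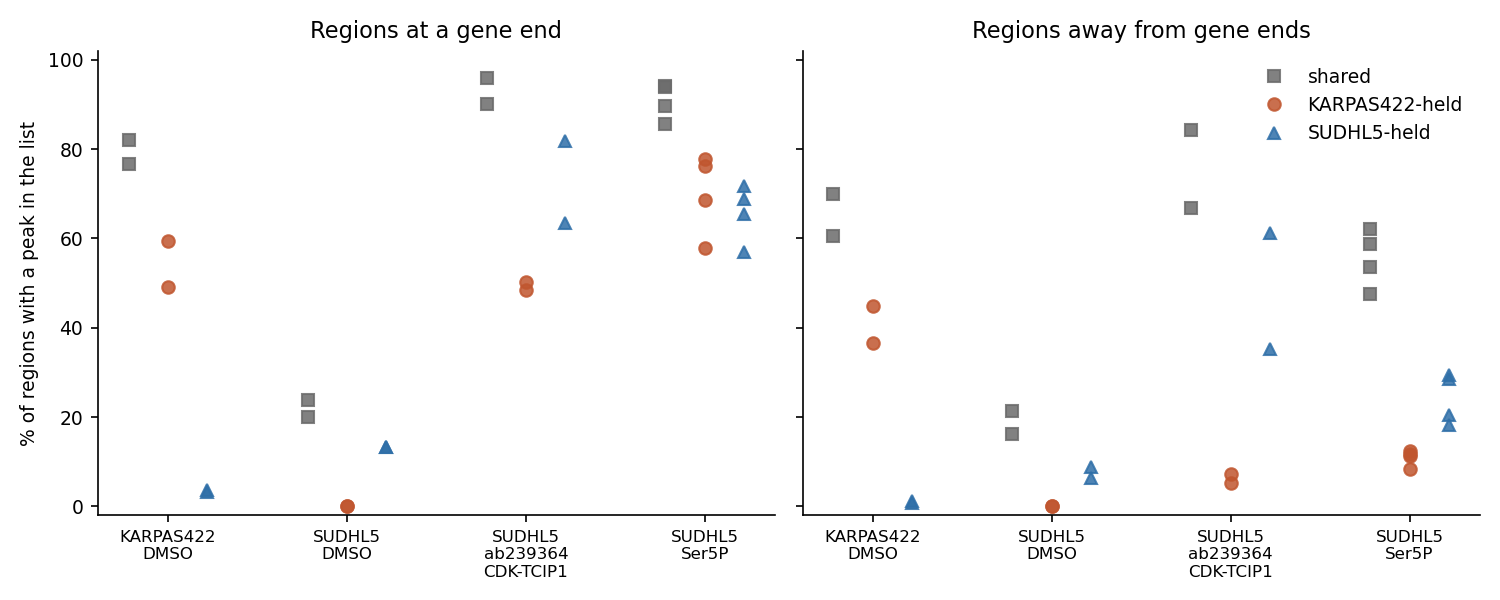
Percentage of regions of each class with a peak in each DMSO list of CST2316S, each treated ab239364 list and each Ser5P list of SUDHL5 (1 point per list), for regions at and away from gene ends. KARPAS422-held regions at gene ends have peaks in treated ab239364 lists at 48.5% and 50.3%, and those away from gene ends at 5.30% and 7.16%.

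Base composition was read in the promoter windows of the genes of each class. Of the table's 300-base windows, 1167, 1516 and 161 matched shared, KARPAS422-held and SUDHL5-held genes (84.1%, 84.2% and 83.0%). The median GC content was 62.7%, 64.7% and 63.3%, and the median ratio of observed to expected CpG 0.858, 0.856 and 0.762, against 0.763 in all protein-coding genes and 0.683 in genes with no peak at an end. Where the peak lay over the promoter window itself, the median GC was 61.0% in 576 shared, 64.3% in 1107 KARPAS422-held and 52.7% in 88 SUDHL5-held genes, with medians of 23, 26 and 12 CpG. TTCNNNGAA was in 8.48%, 7.39% and 6.21% of the windows of the 3 gene classes and in 6.97% of all protein-coding windows. The fuller TTCCTAGAA, whose matches all lie within TTCNNNGAA matches, was searched on both strands. It was found in 9 shared (0.771%), 4 KARPAS422-held (0.264%) and 1 SUDHL5-held window (0.621%), against 0.297% of all protein-coding windows. These counts are too small to compare the classes. A match is a description of letters and not a binding site.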

How the data were processed

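The 4 treated CDK9 chromatin immunoprecipitation lists of antibody CST2316S were analysed (the labels' protocol prints the digits of the antibody number in another order), with DMSO lists of both lines and ab239364 and Ser5P lists of SUDHL5. Per the submitters' processing notes, peaks involve MACS2 and Bowtie2 among the named tools (with SAMtools, Picard, bedtools, deepTools, FastQC and Trim Galore) and the builds hg38 and dm6; the control library of the peak calling is not stated in the labels. Per the labels, Drosophila chromatin was added as a spike-in; no scaled value was used. The authors deposited for each peak a fold enrichment over background (a linear ratio) and a −log10 q-value, one list per sample; the lowest −log10 q was 1.3. Both are the authors' values and were used only to rank, filter or describe peaks within a list. File names give the CDK9 DMSO samples another time than the labels; the labels' 2 h was followed.

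Peaks on the main chromosomes were merged at an overlap of 1 bp (3 peaks on other contigs were left out), classed by the lists that held them, and joined to RefSeq genes (GRCh38.p14) within 1 kb of either end. List totals were compared by exact two-sided permutation. Named genes were the 10 best-ranked of each class (genes sharing a peak counted once), the line-held members of 23 gene lists with up to 4 best-ranked shared members of each, and a fixed set (BCL6, CDKN1A, CDKN1B, PRDM1, BCL2L11, BBC3, PMAIP1, TNFRSF10B, FOXO3, MYC, PAX5, CD79B, CDK9, IRF4); other shared list members, and the printed gene starts of BCL2, CXCR4 and CDKN1A, were chosen after their values were seen. Some genes that fall under this rule are counted but not reported here by name. Members and lists were chosen with earlier results of these data known. Python 3.11.15, numpy 2.4.6, pandas 2.3.3, scipy 1.17.1 and matplotlib 3.10.9 were used. The classing was tested on simulated lists, where 200 of 200 planted regions of each class were recovered. Alternatives changed the q threshold, list length, overlap rule, gene window and the lists used.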

Additional observations from a re-analysis of the deposited data

How the results depend on the processing

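Without 1 list a class needs fewer lists, so counts rise by construction. KARPAS422-held regions then ranged from 4159 to 8595 (8595 without KARPAS422 replicate 2, against 3739) and SUDHL5-held regions from 2775 to 4602 (4502 without SUDHL5 replicate 1 and 4602 without replicate 2, against 2718). KARPAS422-held genes ranged from 2042 to 3149 (3149 without KARPAS422 replicate 2) and SUDHL5-held genes from 204 to 300 (297 without KARPAS422 replicate 1 and 300 without SUDHL5 replicate 2). Shared regions fell from 3451 to 1496 when each list had to cover 50% of a region. At −log10 q of at least 5, 1090 of the 1800 KARPAS422-held genes (60.6%) kept their class and 541 became mixed. Of the SUDHL5-held genes 151 of 194 (77.8%) kept it, and of the shared genes 1021 of 1388 (73.6%). Among named KARPAS422-held genes, ATR, CASP10 and RBL2 lay below 5 in both lists, and CDK12, HSPA1B and VAV1 in replicate 2. SUDHL5-held CD72 lay below 5 in replicate 2. Read around the RefSeq start, SUDHL5-held genes numbered 128; read over the whole gene, they numbered 412 and shared genes 2128. With every list cut to its 9761 best peaks, 2973 regions were KARPAS422-held and 2974 SUDHL5-held, and 1359 genes were KARPAS422-held against 232 SUDHL5-held. The log2 ratio of covered bases, -0.011, ranged from -0.35 (without KARPAS422 replicate 1) to 0.33 (without KARPAS422 replicate 2) and was 0.0051 without SUDHL5 replicate 2. The gene-end difference ranged from 12.9 to 15.5 percentage points. With the replicate number as a replicate block, the log2 list-length difference of 0.31 and the gene-end difference of 14.1 points each had an exact sign-flip p of 0.5, the smallest that 2 pairs allow, and covered bases -0.011 with p = 1. Replicate differences in log2 fold were uncorrelated between the lines (r = -0.00097 over 3451 shared regions). A shift of a whole list drops out of this r, so it cannot tell whether the numbers mark shared batches. The unknown depth of each list limits every absence of a peak.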

Other observations

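Antigen receptor loci held long line-held regions. The longest KARPAS422-held region, 17.2 kb at chr2:88831728-88848880, lay over the kappa deleting element IGKDEL, and an 11.9 kb region at chr22:22881325-22893187 lay over the lambda locus with IGLL5. A SUDHL5-held region of 7.3 kb at chr7:142805397-142812696 lay over TRBV30 of the T-cell receptor beta locus. The longest SUDHL5-held region, 22.1 kb at chr3:183570582-183592715, lay between genes.

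Line-held regions were unevenly spread over chromosomes. KARPAS422-held regions made up 57.9% of all line-held regions, 82.3% on chromosome 18 (149 against 32), 82.1% on chromosome 19 (147 against 32) and 36.5% on chromosome 13 (69 against 120). Chromosome 18 also held more of the peaks of KARPAS422 in DMSO, 2.74% and 2.72% against 0.869% and 0.870% in SUDHL5, and 3.00% and 2.94% against 1.57% and 1.62% after CDK-TCIP1. The treated ab239364 lists of SUDHL5 had 1.34% and 1.40% there. On chromosome 19 the antibodies differed. Treated SUDHL5 had 2.29% and 2.07% of its peaks there with CST2316S and 5.14% and 4.31% with ab239364. In SUDHL5 DMSO the shares were 2.55% and 2.77% with CST2316S and 6.56% and 6.76% with ab239364. Treated KARPAS422 had 3.44% and 3.53% with CST2316S. No ab239364 list of KARPAS422 was read, so the lines could not be compared with that antibody.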
